A study of Mus musculus with 9 samples.

Results

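Glypicans and syndecans are the main heparan sulfate proteoglycans of the cell surface. This report covers the 10 mouse genes that encode them, the 6 glypicans Gpc1 to Gpc6 and the 4 syndecans Sdc1 to Sdc4, of 22396 genes in the deposited counts. The genes were chosen by name with earlier results of these counts known, among them the CPM of each group and the fold changes of Gpc4, which stood among the largest increases for both shRNAs. Differences between the groups in these 10 genes, also between the shRNAs, are therefore a description, and no p-value is given for any of them.

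The RNA came from B16F10 cells, a mouse melanoma line that stably expressed FLAG-tagged RIG-I, a cytosolic RNA sensor, in all groups. The cells of the shCtr group carried a control shRNA, and those of the shOSGEP#1 and shOSGEP#2 groups each carried a different shRNA that targets Osgep. The 3 groups had 3 libraries each, with no further treatment in the labels. OSGEP is the catalytic subunit of the complex that makes the t6A modification of tRNAs reading ANN codons. RNA recovered with an antibody against FLAG was depleted of ribosomal RNA and sequenced, so that each value is a share of RIG-I-bound RNA. Input RNA from the lysates was not analysed here, and more transcript in the cell and more of it on RIG-I cannot be told apart. In a bulk lysate, fewer cells of a type and less RNA per cell cannot be told apart either.

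A heparan sulfate proteoglycan is a core protein that carries long sulfated sugar chains. The chains start on serines that precede glycines, are polymerised and sulfated in the Golgi, and hold growth factors, Wnt proteins, morphogens and chemokines at the cell surface. Glypicans are tied to the outer membrane leaflet by a lipid anchor, with their chains close to the membrane. Syndecans span the membrane and end in a short cytoplasmic tail that binds PDZ proteins such as syntenin, and their ectodomains can be shed by proteases. In melanoma, as in other tumours, both families act as coreceptors for growth factors and as adhesion molecules.

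The coding stretches below, from GENCODE transcripts of GRCm38, show a feature of each family. Serine-glycine codon pairs are not particular to glypicans, as Sdc1, Sdc2, Sdc3 and Sdc4 hold 5, 3, 8 and 3 of them. In the 3 glypicans with enough counts for a test, the stretch holds the serine-glycine codon cluster near the end of the core protein, where the chains are attached, at codons 481 to 494 of Gpc1, 490 to 505 of Gpc4 and 499 to 514 of Gpc6. The serine-glycine codon pairs are in capitals, 3 in Gpc1 and in Gpc4 and 4 in Gpc6.
Gpc1: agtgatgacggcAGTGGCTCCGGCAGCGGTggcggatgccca
Gpc4: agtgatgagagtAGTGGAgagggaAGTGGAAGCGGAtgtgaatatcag
Gpc6: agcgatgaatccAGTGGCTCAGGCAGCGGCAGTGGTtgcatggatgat

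In the syndecans, the last 51 bases of the coding sequence are shown, with the last 12 coding bases before the stop codon in capitals. These codons form the tip of the tail that PDZ proteins bind.
Sdc1: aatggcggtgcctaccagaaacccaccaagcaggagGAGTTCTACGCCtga
Sdc2: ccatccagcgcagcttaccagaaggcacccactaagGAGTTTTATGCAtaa
Sdc3: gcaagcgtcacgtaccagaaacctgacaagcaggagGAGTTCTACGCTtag
Sdc4: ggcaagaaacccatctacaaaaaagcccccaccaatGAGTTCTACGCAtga

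Pairs of syndecans shared 9 to 11 of these 12 bases. Over the whole coding sequence, ANN codons made up 17.3% of the codons of Gpc2 to 29.9% of those of Gpc6. Gpc4 stood at 27.6% and Sdc4 at 21.7%, beside a median of 27.7% over 21300 mouse genes. Gpc3 and Gpc4 both lie on chromosome X, and Gpc5 and Gpc6 both lie on chromosome 14. Gpc2 shares 2376 exonic bases with Gm43720 on the same strand, which the counting could split between them. Gpc1 shares 977 exonic bases with Ankmy1 on the other strand, and the use of strand in the counting was not given in the sources used here.

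Total counts ran from 14914731 to 50224299 in 8 libraries and were 568995 in shOSGEP#2 replicate 2. In this shallow library 3 counts, the floor used here, correspond to a CPM (a gene's count scaled to the total counts of its library) of 5.27. Its values are shown apart, the other 8 are called the deep libraries, and shOSGEP#2 has n = 2 elsewhere. Mitochondrially encoded genes took 2.96% of the counts of shOSGEP#1 replicate 3 and 0.147% to 0.445% of those of the other 7 libraries. The knocked-down gene Osgep differed from shCtr by a log2 fold change of −3.10 (standard error 0.73, edgeR adjusted p = 0.0128) for shOSGEP#1 and by −3.84 (standard error 0.93, edgeR adjusted p = 0.0150) for shOSGEP#2. Both missed the threshold of 0.01. The gene of RIG-I itself, Ddx58, stood at a mean CPM of 214 in shCtr, 258 in shOSGEP#1 and 415 in shOSGEP#2, with 0 counts in the shallow library. Whether reads of the FLAG-RIG-I construct were counted in this gene was not tested. The 7 melanocyte markers were all detected, with a summed CPM of 6039 to 8473 in shCtr, 6288 to 7565 in shOSGEP#1 and 2617 to 3374 in shOSGEP#2.

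In control cells Gpc1 and Sdc4 dominated the family. Per kilobase of exon, the scale used here to rank the members, Gpc1 came first with a CPM per kb of 40.2 ± 8.55 (SD, n = 3). Sdc4 came second with 21.0 ± 2.40 (SD, n = 3). Sdc1 at 7.21 and Sdc2 at 6.25 overlapped between libraries. Sdc3 at 3.22, Gpc6 at 0.73, Gpc4 at 0.34 and Gpc5 at 0.024 followed without overlap, and Gpc2 and Gpc3 had no count. In both shOSGEP groups the mean CPM per kb was highest for Sdc4, at 28.2 in shOSGEP#1 and 70.3 in shOSGEP#2. Gpc1 came second there, at 19.3 and 57.5, and the libraries of Sdc4 and Gpc1 overlapped in both groups. Gpc4 ranked below Gpc6 in shCtr and above it in both shOSGEP groups. In shOSGEP#2 its CPM per kb of 6.24 overlapped with that of Sdc3 at 5.32.

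The summed CPM of the 10 genes was 335 ± 66.4 (SD, n = 3) for shCtr, against 321 ± 57.2 (SD, n = 3) for shOSGEP#1. In the shOSGEP#2 libraries it was 598 and 732, above all shCtr libraries. Glypicans supplied 63.4% ± 0.75 (SD, n = 3) of this sum in shCtr, 32.9% ± 4.93 (SD, n = 3) in shOSGEP#1, and 47.1% and 49.6% in the shOSGEP#2 libraries. The glypican share did not overlap between any 2 of the 3 groups. The sum stayed within its spread in shOSGEP#1 while its makeup shifted from glypicans to syndecans.

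**Figure D1:**
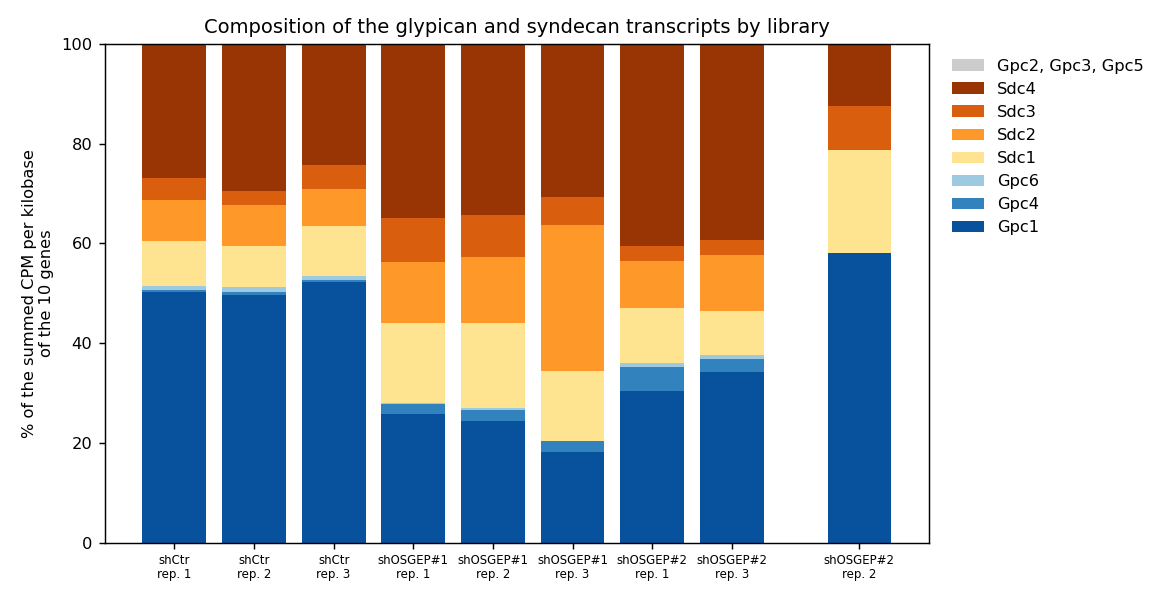
Stacked bars give the percentage of the summed CPM per kilobase of the 10 genes that each gene supplied, 1 bar per library, with the shallow shOSGEP#2 replicate 2 set apart at the right. Gpc1 (dark blue) took 49.6% to 52.4% in shCtr, 18.1% to 25.8% in shOSGEP#1, and 30.5% and 34.3% in the deep shOSGEP#2 libraries. Sdc4 (dark brown) took 24.3% to 29.4%, 30.6% to 34.7%, and 39.2% and 40.4%.

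For the fold changes below, the 8 deep libraries entered edgeR's quasi-likelihood test of each gene, with genes called at an adjusted p under 0.01. The low-count filter passed 12744 genes, among them 7 members. Gpc2, Gpc3 and Gpc5 did not pass and have no fold change. In shOSGEP#1 against shCtr, 2 of the 7 members were called, 1 higher and 1 lower, beside 9.67% of all genes tested (5.00% higher and 4.67% lower). In shOSGEP#2 against shCtr 4 were called, all higher, beside 9.55% of all genes (5.66% higher and 3.89% lower). Since the list was proposed with these differences known, nothing is read from these counts. The median log2 fold change of the 7 members was 0.88 in shOSGEP#1 and 1.18 in shOSGEP#2, where the medians of all genes tested were 0.0021 and −0.057.

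Groups that do not overlap in CPM are common in these data. This held for 45.3% of all genes tested in shOSGEP#1 against shCtr, for 52.3% in shOSGEP#2 against shCtr and for 49.6% between the shRNAs. Of the 7 tested members, 6, 6 and 4 did not overlap in these comparisons. Gpc2, Gpc3 and Gpc5, which were not tested, overlapped in each of them. The members were chosen with these levels known, so nothing is read from these counts.

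Gpc1, the glypican with the highest level in these cells and a coreceptor for fibroblast growth factors, had a CPM of 178, 186 and 258 in shCtr replicates 1, 2 and 3. It had 99.2, 127 and 73.4 in shOSGEP#1 and 253 and 340.0 in shOSGEP#2 replicates 1 and 3. All shOSGEP#1 libraries lay below all shCtr libraries, while shOSGEP#2 overlapped with shCtr. The log2 fold change against shCtr was −1.07 (standard error 0.22) for shOSGEP#1 and 0.42 (standard error 0.24) for shOSGEP#2. In the 8 fits that each left out 1 library, the values ran from −1.28 to −0.87 for shOSGEP#1 and from 0.22 to 0.61 for shOSGEP#2.

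Gpc4, a glypican that modulates Wnt, bone morphogenetic protein and fibroblast growth factor signals and is also shed as a soluble protein, had few counts in control cells. It had 31, 55 and 34 counts in shCtr, or a CPM of 0.77, 1.15 and 0.81, each far above the floor of 3 counts. In shOSGEP#1 the CPM was 3.70, 6.15 and 4.50, from 128, 309 and 138 counts. In shOSGEP#2 replicates 1 and 3 it was 20.1 and 12.9, from 513 and 193 counts. The 3 groups were fully separated, with shCtr lowest and shOSGEP#2 highest. The log2 fold change against shCtr was 2.38 (standard error 0.36) for shOSGEP#1 and 4.09 (standard error 0.40) for shOSGEP#2. Without 1 library at a time, the values ran from 2.15 to 2.58 and from 3.69 to 4.39.

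Gpc6, the closest relative of Gpc4 in the family, was lowest in shOSGEP#1 and highest in shOSGEP#2. Its CPM was 3.84, 4.84 and 5.43 in shCtr, 1.62, 2.49 and 0.78 in shOSGEP#1, and 7.66 and 10.3 in shOSGEP#2 replicates 1 and 3. The groups did not overlap, with shOSGEP#1 below and shOSGEP#2 above shCtr. Its log2 fold change was −1.53 (standard error 0.43) for shOSGEP#1 and 0.83 (standard error 0.46) for shOSGEP#2.

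The remaining glypicans were at or near the floor. Gpc2, a glypican of developing neurons, had 0 counts in all 9 libraries, which allows a CPM of up to 0.0597 to 0.201 in the deep libraries. Gpc3, a regulator of Hedgehog and Wnt signals known from hepatocellular carcinoma, had 0 counts in shCtr, 8, 0 and 7 in shOSGEP#1 and 5 and 0 in shOSGEP#2 replicates 1 and 3. Gpc5, its closest relative, had 5, 5 and 4 counts in shCtr, 3, 12 and 0 in shOSGEP#1 and 5 and 0 in shOSGEP#2 replicates 1 and 3. For both genes the groups overlapped, and no difference was detectable at this depth.

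Sdc4, a syndecan found in most cells and a component of focal adhesions, had a CPM of 47.0, 54.3 and 59.2 in shCtr. It had 65.7, 88.3 and 61.2 in shOSGEP#1 and 166 and 192 in shOSGEP#2 replicates 1 and 3. Both shOSGEP groups lay above shCtr, shOSGEP#1 by a narrow margin and shOSGEP#2 by a wide one. Its log2 fold change was 0.41 (standard error 0.17) for shOSGEP#1 and 1.64 (standard error 0.19) for shOSGEP#2. Without 1 library at a time, the value for shOSGEP#1 ran from 0.23 to 0.51 and that for shOSGEP#2 from 1.57 to 1.73.

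Sdc1, a syndecan best known from epithelial and plasma cells, had a CPM of 23.5, 22.8 and 36.0 in shCtr, 45.2, 65.7 and 41.9 in shOSGEP#1, and 67.7 and 65.0 in shOSGEP#2 replicates 1 and 3. Every deep shOSGEP library lay above every shCtr library, and the shOSGEP groups overlapped. Against shCtr, the log2 fold change of Sdc1 was 0.88 (standard error 0.23) for shOSGEP#1 and 1.18 (standard error 0.25) for shOSGEP#2. Without 1 library at a time, the values ran from 0.65 to 1.13 and from 1.06 to 1.43.

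Sdc2, the syndecan typical of mesenchymal cells, had a CPM of 19.8, 20.9 and 25.3 in shCtr, 32.3, 47.0 and 81.2 in shOSGEP#1, and 53.9 and 76.4 in shOSGEP#2 replicates 1 and 3. It also lay above shCtr in every deep shOSGEP library. Its highest value was in shOSGEP#1 replicate 3, the library with the high mitochondrial share, whose part in this value was not tested. The log2 fold change was 1.27 in shOSGEP#1 (standard error 0.29), and 0.84 without that library. In shOSGEP#2 it was 1.46 (standard error 0.32), with values from 1.22 to 1.66 without 1 library at a time.

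Sdc3, a syndecan of the nervous system, had a CPM of 18.2, 12.9 and 26.8 in shCtr, 39.6, 50.7 and 26.1 in shOSGEP#1, and 29.1 and 34.7 in shOSGEP#2 replicates 1 and 3. The shOSGEP#1 libraries overlapped with shCtr, and the shOSGEP#2 libraries did not. For shOSGEP#1 the log2 fold change was 0.99 (standard error 0.29), and for shOSGEP#2 it was 0.63 (standard error 0.32).

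**Figure D2:**
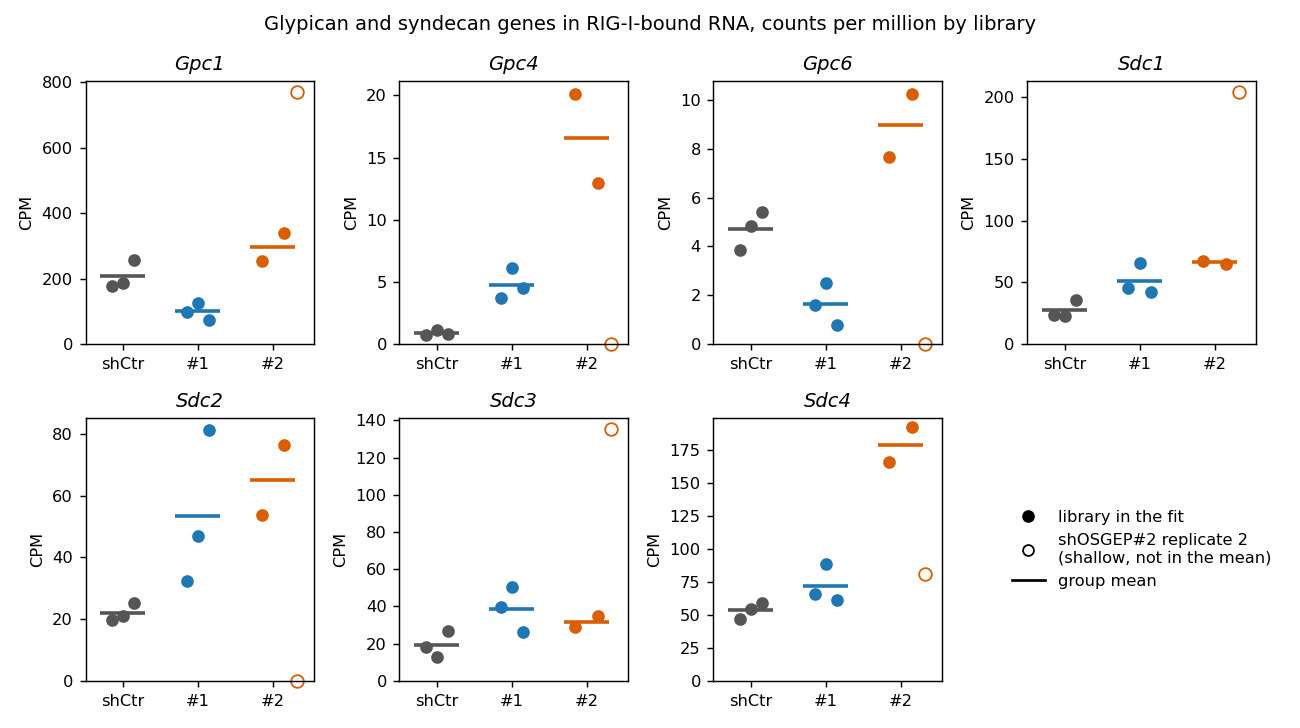
Each panel shows the CPM of 1 gene on a linear axis from 0, with 1 filled point per deep library, a line at the group mean (n = 3 for shCtr and #1, n = 2 for #2) and an open point for the shallow shOSGEP#2 replicate 2. Gpc4 has means of 0.91, 4.78 and 16.5, Gpc1 and Gpc6 are lowest in shOSGEP#1, and the open points lie at 0 for Gpc4, Gpc6 and Sdc2 and far above the other libraries for Gpc1, Sdc1 and Sdc3.

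The shallow library did not follow the other shOSGEP#2 libraries. At their mean level it would have held 169 counts of Gpc1, 37.8 of Sdc1 and 18.1 of Sdc3, and it held 437, 116 and 77. It would have held 102 counts of Sdc4, 37.1 of Sdc2, 9.41 of Gpc4 and 5.10 of Gpc6, and it held 46, 0, 0 and 0. Sdc2 at 0 lay far under a level that its depth could show. With this library in the fit, edgeR called no member in any of the 3 comparisons and 0% of 12337 genes, with 2, 3 and 2 members at an unadjusted p under 0.05. Of all 12337 genes, 620, 1240 and 1325 had such a p. DESeq2 on the same 9 libraries called 0, 1 and 1 members, beside 0.904%, 2.59% and 3.20% of all genes. On the 8 deep libraries DESeq2 called 6, 4 and 4 members, beside 20.0%, 19.4% and 20.9%. In the edgeR fit of all 9 libraries, the log2 fold change of Gpc4 was 2.37 (standard error 0.90) in shOSGEP#1 and 3.63 (standard error 0.95) in shOSGEP#2, and that of Sdc4 in shOSGEP#2 was 1.28 (standard error 0.50).

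The difference between the shRNAs follows from the same group values and shares its libraries with the comparisons above. In shOSGEP#2 against shOSGEP#1, 4 of the 7 members were called, all higher, beside 10.8% of all genes tested (6.23% higher and 4.56% lower), and nothing is read from this count either. The median of the 7 log2 differences was 1.23, where that of all genes was −0.043. The 3 tested glypicans and Sdc4 were higher in both deep shOSGEP#2 libraries than in all 3 shOSGEP#1 libraries. For the other 3 syndecans the shRNA groups overlapped.

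Sdc4 was higher in shOSGEP#2 by a log2 difference of 1.23 (standard error 0.19), and from 1.13 to 1.41 without 1 library at a time. Gpc1 was higher by 1.48 (standard error 0.24, range 1.29 to 1.70). Gpc6 was higher by 2.36 (standard error 0.47, range 2.03 to 2.81).

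Gpc4 was higher by 1.71 (standard error 0.37, range 1.32 to 2.02). Sdc1 differed by 0.30 (standard error 0.25), Sdc2 by 0.20 (standard error 0.32) and Sdc3 by −0.37 (standard error 0.33). With the shallow library in the fit, Sdc2 and Sdc3 changed sign, to −0.34 and 0.30.

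**Figure D3:**
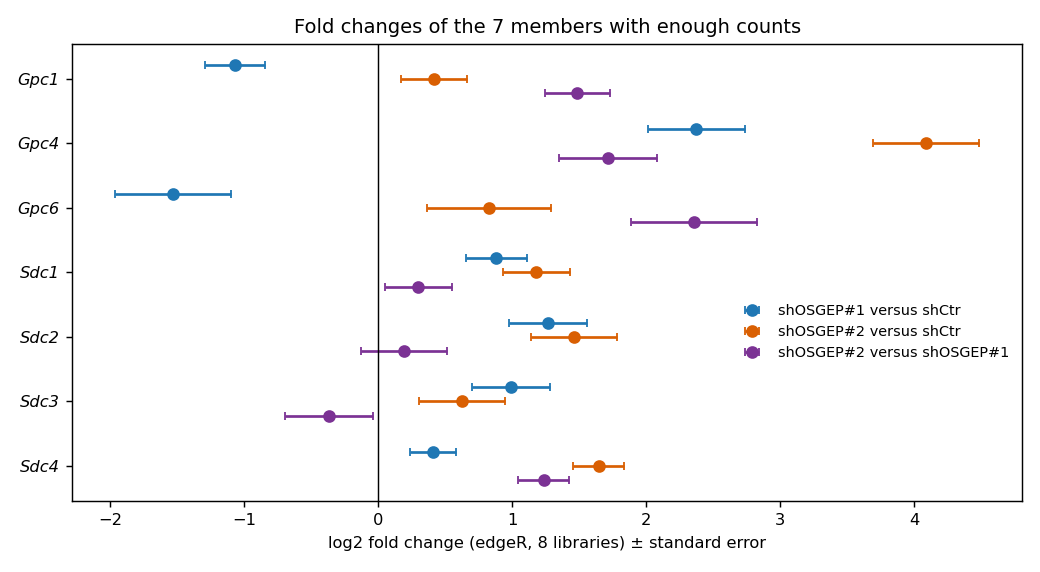
Points are edgeR log2 fold changes of the 7 tested members over 8 libraries, with bars of 1 standard error, for each shRNA against shCtr and for shOSGEP#2 against shOSGEP#1. Gpc4 is furthest to the right at 2.38 and 4.09. Gpc1 and Gpc6 lie left of 0 in shOSGEP#1 only, at −1.07 and −1.53, and the 4 syndecans lie right of 0 for both shRNAs.

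Levels of melanocyte markers moved with the shRNAs as well. Of 7 markers, 1 was lower in shOSGEP#1 than in shCtr (Tyr, log2 fold change −2.59) and 5 in shOSGEP#2 (Tyr, Dct, Pmel, Mlana and Sox10). Among all genes tested, 4.67% and 3.89% were lower in these comparisons. Fibroblast markers summed to a CPM of 4.44 to 7.22 in shCtr, 3.64 to 7.26 in shOSGEP#1, and 16.5 and 39.1 in shOSGEP#2, with 1 of 6 at 0 in every library. Between the shRNAs, 4 melanocyte markers were lower and 2 fibroblast markers, Col1a1 and Col1a2, were higher in shOSGEP#2. Among all genes tested, 4.56% were lower and 6.23% higher there. The part of either list in the higher levels of Gpc1, Gpc4, Gpc6, Sdc2 and Sdc4 in shOSGEP#2 was not tested. Haematopoietic markers summed to at most 5.23 and epithelial and endothelial markers to at most 2.41 in the deep libraries, and neither list had a marker past the threshold.

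The machinery that builds and reads heparan sulfate was examined with 90 genes in 8 lists, of which 64 passed the low-count filter. Like the members, the lists were chosen with earlier results of these counts known. Their counts called and adjusted p-values are therefore a description, and nothing is read from their shares beside those of all genes. In shOSGEP#1 against shCtr, 12 rose and 1 fell, which is 20.3% of those tested beside the 9.67% of all genes. In shOSGEP#2 15 rose and 2 fell, which is 26.6% beside 9.55%. Their median log2 fold change was 0.40 in shOSGEP#1 and 0.50 in shOSGEP#2. For both shRNAs against the shared controls, Ext2, Extl3, Glce, Hs6st1, Hspg2, Cspg4 and Robo1 rose and Met fell. With the shallow library in the fit, edgeR called none of these genes in any comparison, with 3, 15 and 10 at an unadjusted p under 0.05. Of all 12337 genes in that fit, 620, 1240 and 1325 had such a p. DESeq2 on all 9 libraries called 1, 7 and 4, beside 0.904%, 2.59% and 3.20% of all genes.

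**Figure D4:**
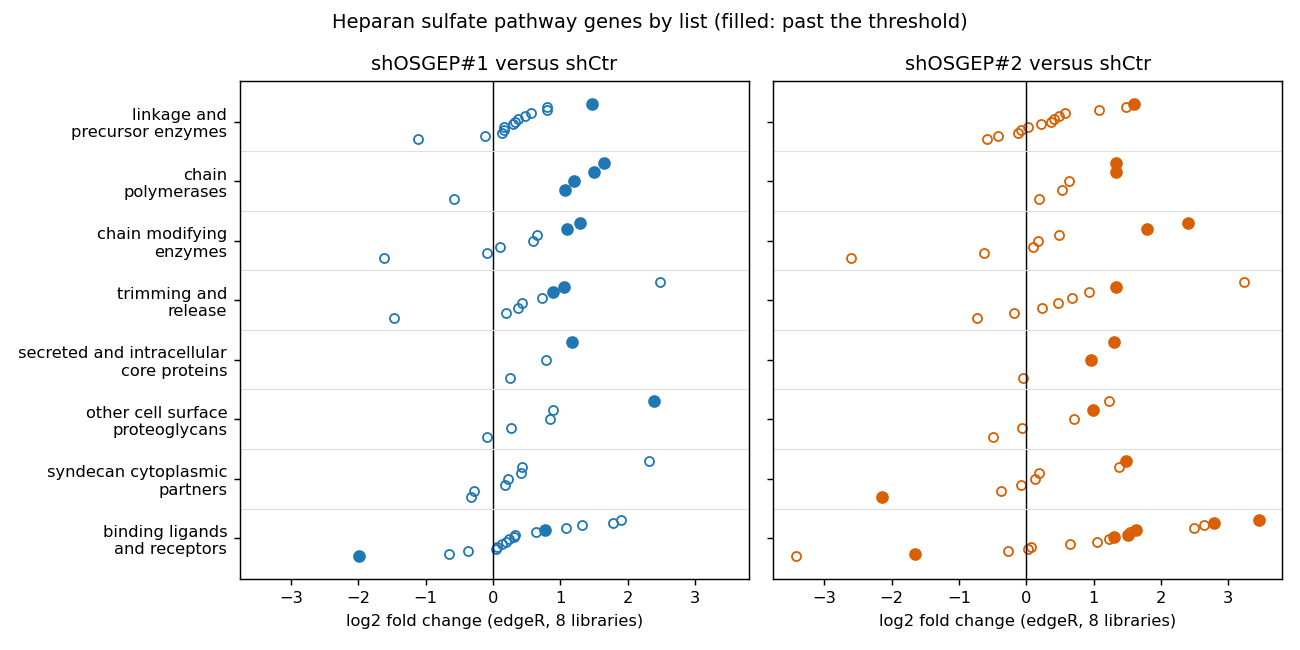
Each point is the edgeR log2 fold change of 1 gene against shCtr over 8 libraries, left for shOSGEP#1 and right for shOSGEP#2, set in a band for its list. Filled points passed the threshold (13 at left, 17 at right) and open points did not. Of the 5 genes in the chain polymerase list, 4 are filled at left and 2 at right, all to the right of 0. Among all genes tested, 9.67% and 9.55% passed the threshold.

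The list named chain polymerases holds Ext1, Ext2 and the related Extl genes, not all of which elongate the sugar chain. In shOSGEP#1 4 of the 5 genes of this list rose (Ext1, Ext2, Extl2 and Extl3), and in shOSGEP#2 2 did (Ext2 and Extl3). These shares were 80% and 40%, beside 9.67% and 9.55% of all genes tested, and nothing is read from them. Ext1, part of the polymerase with Ext2, lay outside the rule for named genes and is named here after its values were seen, at 1.08 in shOSGEP#1 (edgeR adjusted p = 0.00208) beside 0.64 in shOSGEP#2 (edgeR adjusted p = 0.0372). Extl3, which adds the first glucosamine that commits a linker to heparan sulfate, had a CPM of 59.0, 56.5 and 62.7 in shCtr, 157, 188 and 163 in shOSGEP#1, and 173 and 148 in shOSGEP#2 replicates 1 and 3. All deep shOSGEP libraries lay above shCtr without overlap. Its log2 fold change was 1.50 (standard error 0.14, edgeR adjusted p = 0.000174) for shOSGEP#1 and 1.34 (standard error 0.16, edgeR adjusted p = 0.000288) for shOSGEP#2. Ext2 rose by 1.65 (edgeR adjusted p = 0.000767) and 1.34 (edgeR adjusted p = 0.00282). Extl2 rose by 1.20 in shOSGEP#1 (edgeR adjusted p = 0.00476) and stood at 0.20 in shOSGEP#2 (edgeR adjusted p = 0.615). Between the shRNAs, Ext1 differed by −0.44 (edgeR adjusted p = 0.131) and Extl2 by −1.001 (edgeR adjusted p = 0.0197), neither past the threshold.

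Of the 13 genes listed for making the linker and supplying the precursors, 1 rose for each shRNA. This share of 7.69% lay below the 9.67% and 9.55% of all genes tested. The gene was the xylosyltransferase Xylt1 in shOSGEP#1 and Xylt2 in shOSGEP#2. Xylosyltransferases put the first sugar on the core protein. Xylt1 rose by 1.47 in shOSGEP#1 (edgeR adjusted p = 0.00549) and stood at 0.48 in shOSGEP#2 (edgeR adjusted p = 0.313). Xylt2 stood at 0.81 in shOSGEP#1 (edgeR adjusted p = 0.0368) and rose by 1.60 in shOSGEP#2 (edgeR adjusted p = 0.00212). The difference between the shRNAs did not pass the test for either, at −0.99 for Xylt1 (edgeR adjusted p = 0.0529) and 0.79 for Xylt2 (edgeR adjusted p = 0.0531). Ugp2, which makes UDP-glucose and had the highest mean CPM of this list in shCtr, stood at 0.30 and −0.42, neither past the threshold. Among 7 tested enzymes that modify the chain, 2 rose for both shRNAs, a share of 28.6% for each. Glce, the epimerase that turns glucuronic into iduronic acid, rose by 1.10 (edgeR adjusted p = 0.00531) for shOSGEP#1 and 2.41 (edgeR adjusted p = 0.000163) for shOSGEP#2. Hs6st1, which adds sulfate at a glucosamine oxygen, rose by 1.29 (edgeR adjusted p = 0.00438) and 1.80 (edgeR adjusted p = 0.00107). Ndst1, the sulfotransferase with the highest mean CPM of that list in shCtr, stood at −0.09 and 0.48, neither past the threshold.

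Of 8 tested genes that trim chains or release core proteins, 2 rose in shOSGEP#1 and 1 in shOSGEP#2. These shares were 25% and 12.5%, beside 9.67% and 9.55% of all genes tested. Adam10, a protease that sheds membrane proteins, rose by 1.06 in shOSGEP#1 (edgeR adjusted p = 0.00527), and Sulf2, which removes sulfate from finished chains, by 0.90 (edgeR adjusted p = 0.00768). Adam17, a sheddase that cuts Sdc1 and Sdc4, rose by 1.33 in shOSGEP#2 (edgeR adjusted p = 0.00231). The difference between the shRNAs did not pass the test for any of the 3, at −0.59 for Adam10 (edgeR adjusted p = 0.0941), −0.66 for Sulf2 (edgeR adjusted p = 0.0481) and 0.60 for Adam17 (edgeR adjusted p = 0.0782). The proprotein convertase Furin, which cleaves glypicans and had the highest mean CPM of the list in shCtr, stood at 0.20 and −0.18 without passing the threshold.

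Among other core proteins, Hspg2, which encodes the basement membrane proteoglycan perlecan, rose by 1.17 (edgeR adjusted p = 0.000581) for shOSGEP#1 and 1.30 (edgeR adjusted p = 0.000407) for shOSGEP#2. Agrn, which encodes agrin, rose by 0.96 in shOSGEP#2 (edgeR adjusted p = 0.00269). Cspg4, the melanoma-associated chondroitin sulfate proteoglycan, had a CPM of 7.41, 7.33 and 7.18 in shCtr, 39.5, 42.3 and 34.2 in shOSGEP#1, and 14.5 and 16.6 in shOSGEP#2 replicates 1 and 3. The deep libraries of the 3 groups were fully separated, with shCtr lowest and shOSGEP#1 highest. The shallow shOSGEP#2 replicate 2 had a CPM of 156, from 89 counts, above all shOSGEP#1 libraries. With it in the edgeR fit, the log2 difference between the shRNAs was 0.097 in place of −1.40. The log2 fold change of shOSGEP#2 against shCtr was then 2.48. Cspg4 had a log2 fold change of 2.39 (edgeR adjusted p = 6.6e-05) for shOSGEP#1 and 0.99 (edgeR adjusted p = 0.00437) for shOSGEP#2. Cd44, a hyaluronan receptor with the highest mean CPM of its list in shCtr, stood at 0.27 and −0.06, neither past the threshold.

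Of the 7 genes listed as cytoplasmic partners of syndecans, none passed the threshold in shOSGEP#1 and 2 did in shOSGEP#2, in opposite directions. The share in shOSGEP#2 was 28.6%, beside 9.55% of all genes tested. Sdcbp, which encodes syntenin, the PDZ adaptor of the tail ends shown above, had a CPM of 471, 540.5 and 583 in shCtr, 482, 496 and 343 in shOSGEP#1, and 118 and 139 in shOSGEP#2 replicates 1 and 3. It fell by 2.15 on the log2 scale in shOSGEP#2 (standard error 0.21, edgeR adjusted p = 0.00016), where Sdc1, Sdc2 and Sdc4 were higher. Cask, another PDZ protein of the tails, rose by 1.49 in shOSGEP#2 (edgeR adjusted p = 0.000311). In the shallow library Sdcbp had 0 counts, where 73.0 would have matched the other shOSGEP#2 libraries.

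Of 16 tested ligands and receptors that bind heparan sulfate, 1 rose and 1 fell in shOSGEP#1, and 5 rose and 1 fell in shOSGEP#2. These shares were 12.5% and 37.5%, beside 9.67% and 9.55% of all genes tested. Met, the receptor of hepatocyte growth factor, fell by 1.98 on the log2 scale in shOSGEP#1 (edgeR adjusted p = 0.000406) and fell by 1.66 in shOSGEP#2 (edgeR adjusted p = 0.00173). Fgfr3, a fibroblast growth factor receptor, had a CPM of 1.81, 2.83 and 2.03 in shCtr, 2.49, 3.29 and 2.15 in shOSGEP#1, and 20.2 and 32.6 in shOSGEP#2 replicates 1 and 3. Only the shOSGEP#2 libraries stood apart, at a log2 fold change of 3.46 (standard error 0.34, edgeR adjusted p = 0.000163). The guidance receptor Robo1 rose by 0.78 (edgeR adjusted p = 0.00419) and 1.63 (edgeR adjusted p = 0.000163), and its ligand Slit2 rose by 2.79 in shOSGEP#2 (edgeR adjusted p = 0.0066). Ptprs, a receptor phosphatase with the highest mean CPM of this list in shCtr, stood at 0.31 and −0.27, neither past the threshold.

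The genes whose pattern over the 8 deep libraries was most like that of Gpc4 were Boc, Axl and Unc5b. Likeness was the root mean square difference of centred log2(CPM + 1) values among 12713 other tested genes that have a symbol, and it was 0.27, 0.32 and 0.32. The mean CPM of Boc was 11.7 in shCtr, 33.3 in shOSGEP#1 and 74.1 in shOSGEP#2. For Sdc4 the nearest genes were Erlin1, Itgb5 and Sun2, at 0.11, 0.11 and 0.13. The mean CPM of Itgb5 was 40.1 in shCtr, 54.8 in shOSGEP#1 and 128 in shOSGEP#2. These distances describe the libraries that also gave the values above and carry no test.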

How the data were processed

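RNA bound to FLAG-RIG-I was measured in 9 libraries, grouped by the sample labels. The authors trimmed the reads with Trim Galore, aligned them with STAR to GRCm39, quantified genes by Salmon, and what they deposited are raw whole-number counts, not normalized. Salmon estimates need not be whole, and how they became whole is not given in the sources used here. The members and the gene lists were chosen with earlier results of these data known.

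CPM was computed from library totals. Tests used edgeR 4.0.16 in R 4.3.3 with TMM normalization, filterByExpr, a coefficient for each of the 3 groups and the quasi-likelihood test, over 8 libraries. The design left out shOSGEP#2 replicate 2, which held 568995 counts, and the fit with all 9 libraries is given beside it. Calls required an adjusted p under 0.01 after Benjamini-Hochberg correction over all 12744 genes tested. A standard error is the size of the log2 fold change over the root of its F statistic. The methods describe the replicates as independent. Whether they came from separate cultures is not in the labels, so p-values measure the spread between these libraries.

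Gene names, exon lengths, codons and the coding stretches came from GENCODE annotation of GRCm38, matched by identifier for 22285 of 22396 genes, and no coordinates are given because the counts use GRCm39. Floors of 3 counts cover counting error only. From each pathway list were named up to 4 genes past the threshold in any comparison with the largest log2 fold change, and the gene with the highest mean CPM in shCtr. For Gpc4 and Sdc4 the 3 genes nearest in pattern were named. In a test on simulated data for shOSGEP#1 against shCtr, edgeR recovered 199 of 200 changed genes, all with a log2 fold change of 2, among 12624 tested, with 1 false call. The simulation gave every gene the same spread (dispersion 0.07) and changed only genes above a CPM minimum. It covered no comparison with shOSGEP#2. Spreads of real genes can differ, so it does not give the error rate of the calls reported here. Alternatives were DESeq2 1.42.0, RLE normalization, other filters, an adjusted p under 0.05, fits of the groups compared alone, a replicate block and leaving out each library. DESeq2 with all 9 libraries was added after the data were seen. Figures used matplotlib 3.10.9.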

Additional observations from a re-analysis of the deposited data

Results flagged for a closer look

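The test of shOSGEP#2 against shOSGEP#1, over the 8 deep libraries with edgeR's quasi-likelihood test, called 4 members and 9 of the pathway genes named. Genes were named mainly for passing the threshold in any comparison, this one included, so the 9 is partly set by that choice. Of the 64 tested pathway genes 8 were higher and 3 lower, which is 17.2% beside 10.8% of all genes tested. The members and the lists were chosen with earlier results known, so all these values are a description. The members differed by a log2 value of 1.48 (Gpc1), 1.71 (Gpc4), 2.36 (Gpc6) and 1.23 (Sdc4), all higher in shOSGEP#2. Higher in shOSGEP#2 were also the ligand receptors Fgfr3 by 3.22 and Robo1 by 0.85. Hpse, which encodes the heparan sulfate cleaving enzyme heparanase, was higher by 2.14 (edgeR adjusted p = 0.00283). Glce and Cask were each higher by 1.31, and Extl1, of the chain polymerase list, was higher by 1.11. Vegfa and Lrp1, called here but outside the rule for named genes, were higher by 1.46 and 1.24. Lower in shOSGEP#2 were Sdcbp at −1.86, Cspg4 at −1.40 and Papss1, which makes the sulfate donor, at −0.91. With the shallow library in the fit, edgeR called none of these, and the value of Cspg4 changed sign, to 0.097. Groups of 3 libraries are too small for the test of single outlying values, so none was run.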

How the results depend on the processing

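The number of members called was 2 in shOSGEP#1 against shCtr, 4 in shOSGEP#2 against shCtr and 4 between the shRNAs. With all 9 libraries edgeR gave 0, 0 and 0, and DESeq2, added after the data were seen, gave 0, 1 and 1. In shOSGEP#1 the count was 6 by DESeq2 on 8 libraries, 5 with no low-count filter and 6 at an adjusted p under 0.05. Between the shRNAs it was 2 with only those groups in the fit. Leaving out 1 library gave 0 to 2, 2 to 4 and 2 to 3 members, with the lowest counts without shCtr replicate 1, without shCtr replicate 1 or 2 or shOSGEP#2 replicate 1 or 3, and without shCtr replicate 2, shOSGEP#1 replicate 1 or shOSGEP#2 replicate 3. The pathway genes called were 13, 17 and 11. They were 0, 0 and 0 by edgeR and 1, 7 and 4 by DESeq2 with all 9 libraries, and between the shRNAs 6 with only those groups and 19 at an adjusted p under 0.05. Leaving out 1 library gave 5 to 15, 11 to 17 and 6 to 11, with the lowest counts without shCtr replicate 1 or 2 or shOSGEP#1 replicate 2, without shCtr replicate 2, and without shOSGEP#1 replicate 2. The cause was not tested.

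The difference of Sdc2 between the shRNAs changed sign with all 9 libraries (−0.34 by edgeR, −0.43 by DESeq2), without shOSGEP#1 replicate 1 (−0.061) and without shOSGEP#2 replicate 3 (−0.039), in a range up to 0.63 over the fits without 1 library. That of Sdc3 changed sign with all 9 libraries (0.30 by edgeR, 0.31 by DESeq2). Of the other fold changes, 292 under an alternative kept direction and side of the threshold, 48 lost the call and 11 gained it. With the replicate number as a block, 3, 3 and 4 members and 13, 17 and 13 pathway genes were called. Libraries with the same number correlated by −0.0034 to 0.18 (mean 0.081) in their deviations from the group means. Those with different numbers correlated by −0.18 to 0.14 (mean −0.040). The numbers were not taken as pairs in the main fit. Whether the same number marks the same experiment was not tested. Depth limits Gpc2, Gpc3 and Gpc5 in all libraries. In the shallow library Gpc4 and Gpc6 had 0 counts. Counts of 9.41 and 5.10, above the floor of 3, would have matched the other shOSGEP#2 libraries, and the cause was not tested.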
